A study of Homo sapiens with 64 samples.

Results

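The CCAAT/enhancer-binding proteins (C/EBPs) were followed through 4 genes, CEBPA, CEBPB, CEBPD and CEBPG, in BEAS-2B cells, a cell line that was immortalised from epithelium of the human bronchus. The members were the probe sets of the deposited array table whose platform gene symbol is one of these names, 9 of 49395 probe sets in all, with the probe set of highest mean over the 64 arrays kept for each gene, which gave 4 of 18132 genes. CEBPA and CEBPB each had 1 probe set, CEBPG had 2 and CEBPD had 5. Cells were kept overnight without serum. They then received 100 nM budesonide together with 10 nM formoterol (the combination), 100 nM budesonide alone, 10 nM formoterol alone, or nothing (untreated cells), each for 1, 2, 6 and 18 h, with 4 independent determinations in each of the 16 groups. Budesonide is an inhaled glucocorticoid that acts through the glucocorticoid receptor, and formoterol is an inhaled long-acting bronchodilator that raises cyclic AMP. All groups share the same cell line, so a result describes that line and not airway tissue.

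C/EBPs are basic leucine zipper transcription factors that bind DNA as dimers with each other and with related zipper proteins. C/EBPalpha (CEBPA) drives differentiation and restrains division. C/EBPbeta (CEBPB), first known as the factor that binds the interleukin-6 gene, and C/EBPdelta (CEBPD) act in inflammation, the acute phase response and early fat cell differentiation, and C/EBPgamma (CEBPG) has no strong activation domain of its own and acts through its partners. One CEBPB mRNA gives long activating and short inhibitory proteins by the choice of start codon, which an array of mRNA cannot tell apart, and C/EBP activity also depends on phosphorylation and turnover of the protein. In airway epithelium the family is known for a part in secretory cell differentiation and host defence, and its genes are known targets of glucocorticoids and of cyclic AMP signalling in several cell types.

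The promoters of the members are shown first, as a description. RefSeq (GRCh38.p14) gave promoter windows for 3 of the 4 genes, 5 windows of 35116 in its table, and CEBPD had none. CEBPB lies at chr20:50190583-50192690 on the plus strand and has 2 annotated starts. CEBPA, at chr19:33299934-33302534 on the minus strand, and CEBPG, at chr19:33373709-33382686 on the plus strand, are neighbours whose starts lie 71.2 kb apart. The sequences run 5' to 3' on the strand of the gene and end just before the start, except that the second one is a stretch of 30 bases ahead of the downstream CEBPB start. Capitals mark the motifs TGACG and TATAAA where a search on both strands found them, and a sequence without capitals held none of the motifs searched. The positions are chr20:50190333-50190582 and chr20:50190768-50190797 for CEBPB, chr19:33302535-33302784 for CEBPA and chr19:33373459-33373708 for CEBPG.
CEBPB, before the upstream start: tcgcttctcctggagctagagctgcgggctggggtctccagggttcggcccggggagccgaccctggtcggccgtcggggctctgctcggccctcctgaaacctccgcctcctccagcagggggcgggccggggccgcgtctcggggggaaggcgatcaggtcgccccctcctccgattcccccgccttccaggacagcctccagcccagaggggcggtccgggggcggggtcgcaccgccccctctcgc
CEBPB, before the downstream start: cggcgTGACGcagcggttgctacgggccgc
CEBPA, before the start: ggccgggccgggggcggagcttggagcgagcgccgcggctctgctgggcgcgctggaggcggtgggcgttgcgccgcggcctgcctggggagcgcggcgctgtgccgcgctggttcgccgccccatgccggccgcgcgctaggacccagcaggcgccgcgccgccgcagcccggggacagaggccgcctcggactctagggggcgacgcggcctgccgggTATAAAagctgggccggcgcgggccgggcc
CEBPG, before the upstream start: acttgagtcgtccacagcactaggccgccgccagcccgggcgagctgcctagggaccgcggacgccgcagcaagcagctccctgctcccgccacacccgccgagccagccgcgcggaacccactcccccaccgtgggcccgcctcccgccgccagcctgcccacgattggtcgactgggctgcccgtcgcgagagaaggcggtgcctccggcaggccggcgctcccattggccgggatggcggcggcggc

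The search covered the 250 bases before each start, counted back from -1. TGACG, the core of the cyclic AMP response element, began at position -57 from the downstream CEBPB start and was in 21.2% of all windows. The full palindrome of that element, TGACGTCA, was in 1.65% of all windows and in none of the members'. TATAAA began at -30 from the CEBPA start and at -29 from the downstream CEBPB start, against 10.7% of all windows. The pattern of a glucocorticoid receptor site, GNACA followed after 3 bases of any kind by TGTNC, was in 0.327% of all windows, and TTGCNNAA, a C/EBP-type pattern, in 9.05%, and neither was in a window of the members. TGACG lies within TGACGTCA. These matches describe letters in the windows and were not set against binding data or tested against the responses of the genes.

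The 64 arrays held log2 expression values on a common scale, with array medians from 4.87 to 4.95. A difference of 1 on this scale is a 2-fold difference, and probe sets are not compared with each other in level. Of the epithelial markers, 3 of 7 measured (KRT7, KRT8 and KRT18) averaged above the overall median of 4.90 in untreated cells, while EPCAM at 2.57 and CDH1 at 4.44 did not. Of the fibroblast markers 2 of 5 (COL1A1 and PDGFRB) lay above it, and of the leukocyte and endothelial markers 0 of 5 and 0 of 4. NR3C1, the glucocorticoid receptor gene, averaged 10.60. The 3' over 5' signal of actin, a sign of RNA integrity, was highest in replicate 1 of every group at 1, 6 and 18 h and in replicate 3 of every group at 2 h. Against the untreated array of the same number it was higher in all 4 replicates of formoterol at 1 h (log2 values of 1.73, 0.98, 1.24 and 0.96 in formoterol, against 1.54, 0.91, 0.71 and 0.67 in untreated cells) and of the combination at 2 h (1.44, 0.94, 1.61 and 1.11 in the combination, against 1.34, 0.84, 1.35 and 0.76 in untreated cells), and lower in all 4 of formoterol at 18 h. Its part in the results was not tested.

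CEBPB and CEBPD were induced, CEBPG moved by small amounts and CEBPA stayed close to the lower quartile of all values. Over the 16 group means CEBPB spanned 3.24 log2 units, CEBPD 2.68, CEBPA 0.62 and CEBPG 0.39. Of 12 comparisons of a drug treatment with untreated cells at the same time, CEBPD was higher in 12, CEBPB was higher in 10, CEBPG was lower in 2 and CEBPA changed in 0 (1 at an unadjusted p under 0.05). A change means an adjusted p under 0.05 from limma, with Benjamini-Hochberg adjustment over all 18132 genes, in 1 model of all 64 arrays. The 12 comparisons called between 0.998% (budesonide at 1 h) and 21% (the combination at 18 h) of all genes. In untreated cells none of the 4 genes changed between 1 h and 2, 6 or 18 h, also at an unadjusted p under 0.05, where 0.0165%, 0.21% and 0.364% of all genes passed the adjusted test. Drug comparisons at one time share the untreated arrays of that time and are given side by side. Where groups are said not to overlap, every array of the higher group lay above every array of the lower. The share of all genes for which this held was not counted, so a lack of overlap is a description and carries no test. The share with the same sign in 4 of 4 replicates was not counted either, so that agreement is also only a description. Each array measured RNA of a whole culture, so a change in every cell and a change in a share of the cells cannot be told apart.

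**Figure D1:**
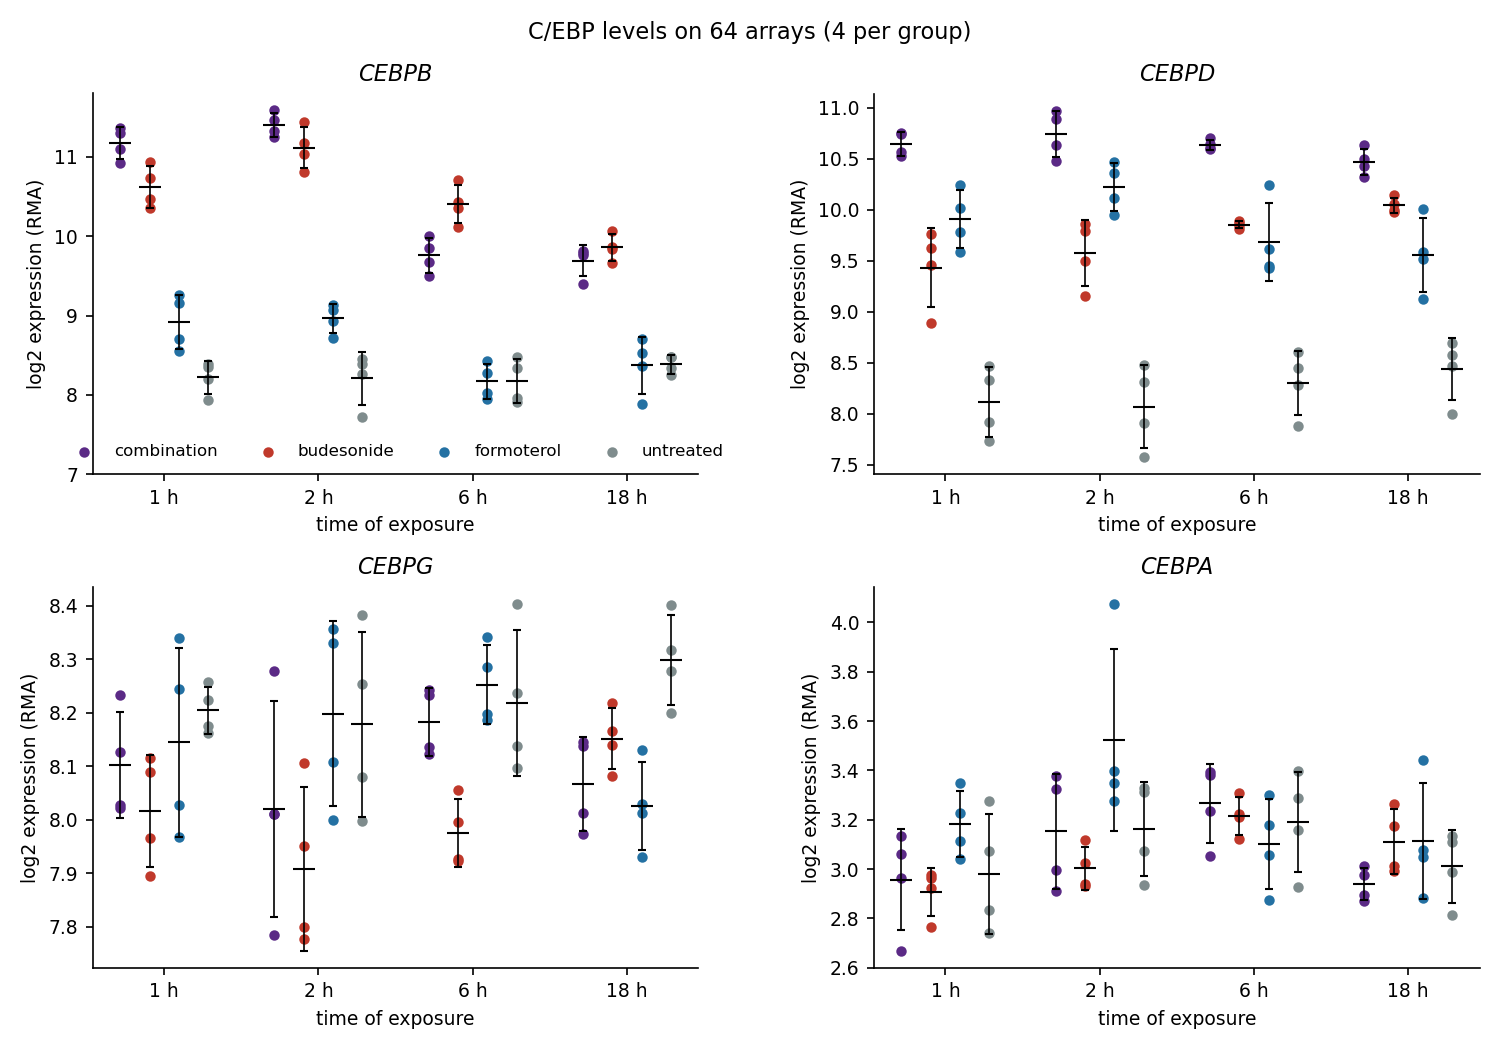
Log2 expression of the 4 genes on every array (points), with the mean (wide tick) and SD (bars) of each group of 4, by time of exposure in h, with the combination, budesonide, formoterol and untreated cells from left to right. Axes differ between panels. CEBPB separates cells that received budesonide from the rest, every drug-treated group of CEBPD lies above the untreated cells, and the CEBPG and CEBPA panels cover less than 1 and less than 2 log2 units.

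CEBPB rose in budesonide at all 4 times, by 7.51-fold at 2 h and still by 2.78-fold at 18 h. At 1 h it read 10.94, 10.73, 10.47 and 10.35 on the budesonide arrays (replicates 1 to 4), against 8.36, 8.39, 8.21 and 7.93 in untreated cells. At 2 h it read 11.18, 11.04, 11.44 and 10.81 in budesonide, against 8.39, 8.26, 8.46 and 7.72 in untreated cells. Every budesonide array lay far above every untreated one at both times. At 6 h the budesonide arrays gave 10.71, 10.36, 10.12 and 10.44, against 8.34, 8.47, 7.97 and 7.91 in untreated cells. At 18 h they gave 10.07, 9.87, 9.66 and 9.84, against 8.48, 8.48, 8.34 and 8.25. The groups did not overlap at any time. The log2 differences were 2.40 at 1 h, 2.91 at 2 h, 2.23 at 6 h and 1.47 at 18 h, each ± 0.16 (SE, n = 4 per group), with adjusted p of 1.85e-18, 2.2e-22, 8.55e-18 and 3.41e-11 in limma. Among all genes, 0.998%, 3.94%, 14.2% and 18.3% changed in budesonide at these times.

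CEBPB rose early and briefly in formoterol. At 1 h the formoterol arrays read 9.16, 9.26, 8.71 and 8.55, all above the highest untreated array at 8.39, and the difference was 0.70 ± 0.16 (SE, n = 4 per group, adjusted p = 0.00581, 1.62-fold). At 2 h they read 8.93, 9.08, 9.14 and 8.72, all above the highest untreated array at 8.46, with a difference of 0.76 ± 0.16 (adjusted p = 0.000786, 1.69-fold). At 6 h they read 8.28, 8.43, 8.02 and 7.95, within 0.06 of the untreated array of the same number in each replicate. At 18 h they read 8.70, 8.53, 8.37 and 7.88 and overlapped the untreated cells. The differences at 6 and 18 h were 0.00 and -0.01, with 95% confidence intervals from -0.32 to 0.32 and from -0.34 to 0.31. Formoterol changed 1.34% of all genes at 1 h, 4.6% at 2 h, 4.81% at 6 h and 1.11% at 18 h. The call at 1 h missed the threshold without any 1 of 3 arrays, formoterol replicate 1 (0.62, adjusted p = 0.0549), formoterol replicate 2 (0.59, adjusted p = 0.0931) or untreated replicate 4 (0.60, adjusted p = 0.0714), and without replicate 1 of every group (0.67, adjusted p = 0.0837).

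In the combination CEBPB reached its highest levels of the series. At 1 h it read 11.11, 11.36, 11.31 and 10.92, and at 2 h 11.46, 11.33, 11.59 and 11.25. By 6 h it read 10.01, 9.68, 9.50 and 9.86, and at 18 h 9.82, 9.76, 9.40 and 9.79. Every one of these arrays lay above every untreated array. Relative to untreated cells the differences were 2.95, 3.20, 1.59 and 1.31 at 1, 2, 6 and 18 h, each ± 0.16 (SE, n = 4 per group), or 7.74-fold, 9.19-fold, 3.01-fold and 2.48-fold, all with adjusted p of 1.17e-09 or smaller. The combination changed 2.76%, 9.49%, 18.6% and 21% of all genes.

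CEBPD, which encodes a C/EBP of the acute phase response, rose in every drug treatment at every time. In budesonide at 1 h it read 9.77, 9.62, 8.89 and 9.45, against 8.33, 8.46, 7.73 and 7.92 in untreated cells. At 2 h it read 9.86, 9.79, 9.15 and 9.49, against 8.31, 8.48, 7.57 and 7.91 in untreated cells. Replicate 3 was the lowest array of both treatments at these times, and the groups did not overlap. At 6 h the budesonide arrays were close together at 9.89, 9.87, 9.84 and 9.81, against 8.60, 8.44, 7.87 and 8.28 in untreated cells. At 18 h they gave 10.06, 10.14, 10.0 and 9.98, against 8.69, 8.58, 8.0 and 8.47. The differences were 1.32, 1.51, 1.55 and 1.61 at the 4 times, each ± 0.18 (SE, n = 4 per group), from 2.5-fold to 3.05-fold, with adjusted p between 1.2e-10 and 3.35e-07.

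Formoterol alone raised CEBPD as well, most at 2 h. The arrays read 10.02, 10.24, 9.78 and 9.58 at 1 h and 10.36, 10.47, 9.95 and 10.11 at 2 h. They read 9.61, 10.25, 9.43 and 9.45 at 6 h and 9.59, 10.01, 9.12 and 9.51 at 18 h. All 4 arrays lay above all untreated arrays at each time, with replicate 2 the highest. The differences from untreated cells were 1.80, 2.16, 1.38 and 1.12, each ± 0.18 (SE, n = 4 per group), or 3.47-fold, 4.45-fold, 2.61-fold and 2.18-fold, with adjusted p of 2.22e-11, 1.72e-14, 5.94e-08 and 5.33e-05.

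The combination gave the highest CEBPD level at each time. It read 10.75, 10.75, 10.52 and 10.57 at 1 h, 10.89, 10.97, 10.48 and 10.63 at 2 h, 10.59, 10.65, 10.60 and 10.70 at 6 h, and 10.43, 10.63, 10.32 and 10.50 at 18 h. The lowest of these 16 arrays lay 1.63 log2 units above the highest untreated array of the series. The differences from untreated cells were 2.54, 2.68, 2.34 and 2.04, each ± 0.18 (SE, n = 4 per group), from 6.39-fold at 2 h to 4.1-fold at 18 h, all with adjusted p of 3.28e-14 or smaller.

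**Figure D2:**
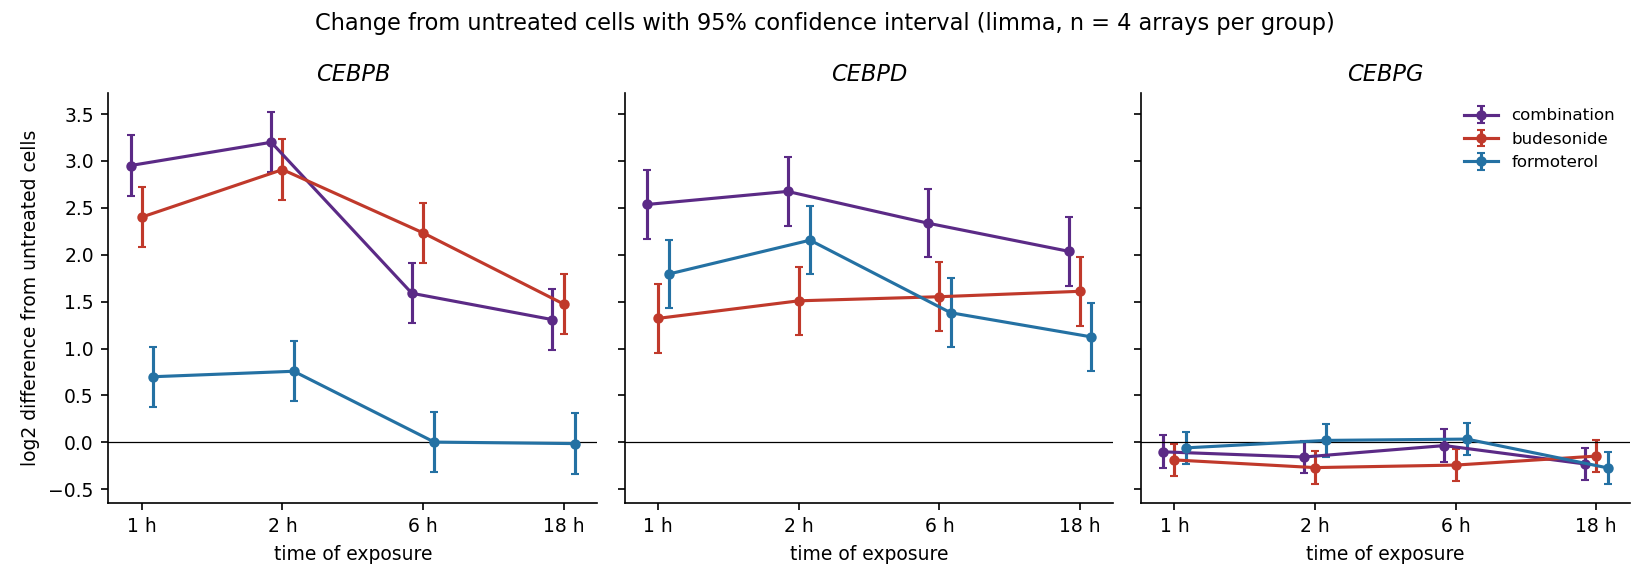
Log2 difference from untreated cells at the same time (limma) with its 95% confidence interval, by time of exposure in h, for the combination, budesonide and formoterol, 4 arrays per group. CEBPB in the combination was 3.20 at 2 h and 1.59 at 6 h, below budesonide at 2.23, while CEBPD in the combination stayed between 2.04 and 2.68 and CEBPG stayed between -0.27 and 0.03 in all 3 treatments.

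The time course differed between the genes. For CEBPB the size of the effect differed between the 4 times in the combination (moderated F = 35.1, adjusted p = 2.35e-11), in budesonide (F = 13.7, adjusted p = 2.04e-05) and in formoterol (F = 6.98, adjusted p = 0.0149). For CEBPD only the formoterol effect passed this test (F = 6.21, adjusted p = 0.028). The CEBPD effect gave F = 2.31 in the combination (adjusted p = 0.247) and F = 0.468 in budesonide (adjusted p = 0.939), which does not show that these effects were constant. The same test called 22.6% of all genes for the combination, 12.7% for budesonide and 4.51% for formoterol. Without replicate 1 of every group the formoterol tests missed the threshold, with F = 6.04 for CEBPB (adjusted p = 0.0533) and F = 3.62 for CEBPD (adjusted p = 0.253). The CEBPD test also missed it without any 1 of 7 single arrays, with F between 4.71 and 5.39. These were formoterol replicates 1 and 2 and untreated replicates 3 and 4 at 2 h, and formoterol replicate 3 and untreated replicates 1 and 2 at 18 h.

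What formoterol added to budesonide turned round with time for CEBPB. Combination minus budesonide was 0.55 ± 0.16 at 1 h (SE, n = 4 per group, adjusted p = 0.0735) and 0.29 ± 0.16 at 2 h (adjusted p = 0.55), higher in 4 of 4 replicates at both times, though neither passed the threshold. At 6 h it was -0.64 ± 0.16 (adjusted p = 0.00506), and CEBPB was 0.64 times as high in the combination as in budesonide alone, lower by 0.58 to 0.70 in each of the 4 replicates, with no overlap of the groups. At 18 h it was -0.17 ± 0.16 (adjusted p = 0.905), lower in 4 of 4 replicates. The difference itself varied between times (F = 10.7, adjusted p = 0.00056), in a test added after the values were seen. This comparison called 1.47%, 4.38%, 6.72% and 0.651% of all genes at the 4 times, and 4.96% for the variation between times. The call at 6 h held without any 1 array, with values from -0.74 to -0.54.

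For CEBPD formoterol added to budesonide at 1, 2 and 6 h. Combination minus budesonide was 1.21 at 1 h (adjusted p = 2.1e-06), 1.17 at 2 h (adjusted p = 2.69e-06) and 0.78 at 6 h (adjusted p = 0.00232), each ± 0.18 (SE, n = 4 per group). At 18 h it was 0.43 ± 0.18 (adjusted p = 0.485). The variation of this difference between times missed the threshold (F = 4.08, adjusted p = 0.147), or passed it with the replicate as a block (F = 11.2). The groups did not overlap at any of these times, 18 h included, where the combination arrays began at 10.32 and the budesonide arrays ended at 10.14. Same-numbered arrays of the combination and budesonide varied together at 18 h, and with the replicate as a block the adjusted p was 0.0217. At 18 h the pairing did not hold in every pair for comparisons with formoterol alone, whose arrays are also in that fit.

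Budesonide added to formoterol raised both genes. For CEBPB, combination minus formoterol was 2.25 at 1 h, 2.44 at 2 h, 1.59 at 6 h and 1.32 at 18 h, each ± 0.16 (SE, n = 4 per group) and all with adjusted p of 1.07e-09 or smaller. For CEBPD it was 0.74 ± 0.18 at 1 h (adjusted p = 0.0137), 0.52 ± 0.18 at 2 h (adjusted p = 0.118), 0.95 ± 0.18 at 6 h (adjusted p = 4.86e-05) and 0.91 ± 0.18 at 18 h (adjusted p = 8.91e-05). The CEBPD groups did not overlap at any time, and at 2 h the replicate differences were all between 0.50 and 0.54. With the replicate as a block, which arrays of the same number at 2 h bore out, the 2 h difference had an adjusted p of 0.000554. This comparison called 1.27%, 4.15%, 13.4% and 17.6% of all genes. The CEBPD call at 1 h missed the threshold without formoterol replicate 3 (0.70) or 4 (0.63), combination replicate 1 (0.70) or 2 (0.71), or replicate 1 of every group (0.74), with adjusted p up to 0.154.

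**Figure D3:**
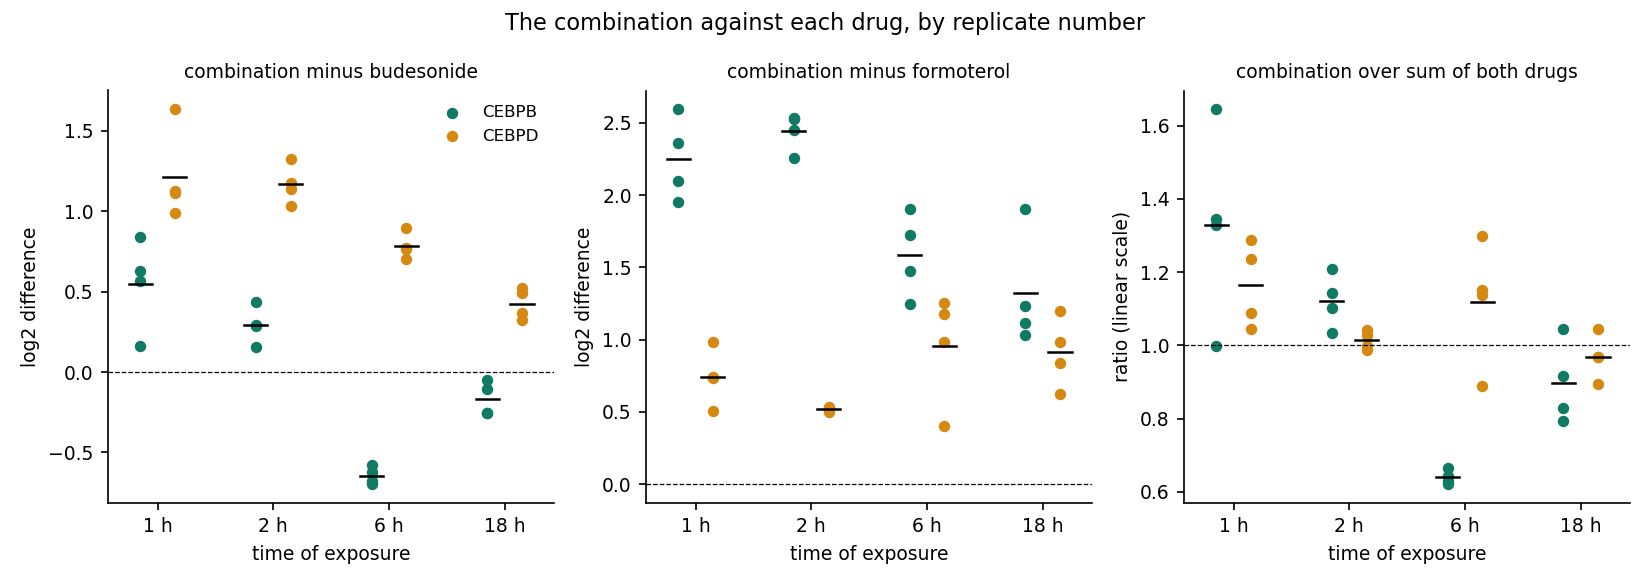
CEBPB and CEBPD in the combination against budesonide (left, log2 difference) and against formoterol (middle, log2 difference), by time of exposure in h. The right panel sets the combination against the sum of the untreated level and both drugs' increments (ratio on the linear scale). Points are the 4 replicate numbers and lines their means. CEBPB falls below 0 against budesonide at 6 and 18 h, where its mean ratio to the sum is 0.640 and 0.896. CEBPD stays above 0 against each drug.

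No member passed the test of the interaction, a departure from additivity on the log2 scale, which called 0.171%, 0.59%, 0.722% and 0.276% of all genes. At an unadjusted p under 0.05 in limma it was passed at 4 of 4 times by CEBPD, at 2 by CEBPB and at 0 by CEBPA and CEBPG. The interaction (combination minus budesonide minus formoterol plus untreated) was below 0 at all 4 times for CEBPB and CEBPD. For CEBPB it was -0.15, -0.47, -0.65 and -0.15, each ± 0.23 (SE), with the smallest adjusted p, 0.315, at 6 h. For CEBPD it was -0.58, -0.99, -0.60 and -0.70, each ± 0.26 (SE), with the smallest adjusted p, 0.0526, at 2 h, where a fit with the replicate as a block gave 2.04e-05. On the linear scale, in a comparison added after the values were seen and without a test, CEBPD in the combination was 1.16, 1.01, 1.12 and 0.968 times the sum of the untreated level and both drugs' increments at 1, 2, 6 and 18 h. At 2 h the 4 replicates of that ratio lay between 0.987 and 1.04. CEBPB gave 1.33 at 1 h, 1.12 at 2 h, 0.640 at 6 h (0.621 to 0.665) and 0.896 at 18 h.

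Set against each other, also after the values were seen, CEBPB was higher in budesonide than in formoterol at all 4 times, and CEBPD was lower in budesonide at 2 h. Budesonide minus formoterol for CEBPB was 1.70, 2.15, 2.23 and 1.49 at the 4 times, each ± 0.16 (SE, n = 4 per group), all with adjusted p of 3.07e-11 or smaller. For CEBPD it was -0.47 at 1 h (adjusted p = 0.341), -0.65 at 2 h (adjusted p = 0.016), 0.17 at 6 h (adjusted p = 0.608) and 0.49 at 18 h (adjusted p = 0.061), each ± 0.18. With the replicate as a block the CEBPD difference at 1 h had an adjusted p of 0.00373. This comparison called 1.95%, 6.08%, 16.8% and 15.4% of all genes. The CEBPD call at 2 h missed the threshold without budesonide replicate 3 (-0.51) or 4 (-0.62), formoterol replicate 1 (-0.60) or 2 (-0.56), or replicate 1 of every group (-0.70), with adjusted p up to 0.136, and on the probe set 11764029_at (-0.84). The CEBPD difference at 18 h passed it with the replicate as a block (0.49), with only the compared arrays (0.49), with dim genes left out (0.49), on 11743136_x_at (0.55) and without formoterol replicate 2 (0.64). Same-numbered budesonide and formoterol arrays at 18 h did not all vary together, with a lowest correlation of -0.06.

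Ordered by group mean, CEBPB fell into steps. The combination at 2 h (11.41 ± 0.15, SD, n = 4) and 1 h (11.17 ± 0.20) came first, then budesonide at 2 h (11.12 ± 0.26), 1 h (10.62 ± 0.27) and 6 h (10.40 ± 0.24). A gap of 0.54, larger than the sum of both SDs, separated these from budesonide at 18 h (9.86 ± 0.17) and the combination at 6 h (9.76 ± 0.22) and 18 h (9.69 ± 0.20). A gap of 0.73 followed, then formoterol at 2 h (8.97 ± 0.19) and 1 h (8.92 ± 0.34), and a gap of 0.53 before the last 6 groups, formoterol at 6 and 18 h and all untreated cells, between 8.17 and 8.39. Other neighbours in this order did not differ beyond the sum of their SDs. For CEBPD the only such gap, 1.00, lay between budesonide at 1 h (9.43 ± 0.38), the lowest drug-treated group, and untreated cells at 18 h (8.43 ± 0.31).

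Untreated levels varied with the replicate. CEBPB was lowest in replicate 4 and CEBPD lowest in replicate 3 of the untreated cells at all 4 times. The differences of drug-treated arrays from the untreated array of the same number were above 0 in 4 of 4 replicates for CEBPB in budesonide and the combination at all times, and for CEBPD in all 3 treatments at all times. For CEBPD they ranged from 1.16 to 2.00 in budesonide, from 0.90 to 2.38 in formoterol and from 1.73 to 2.90 in the combination.

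CEBPG, the partner of ATF4 in the amino acid response, lay slightly lower in budesonide at 6 h and in the combination at 18 h. At 6 h it read 8.0, 7.93, 7.92 and 8.06 in budesonide, against 8.40, 8.14, 8.24 and 8.10 in untreated cells, and the groups did not overlap. The difference was -0.24 ± 0.09 (SE, n = 4 per group, adjusted p = 0.0497). At 18 h it read 8.01, 7.97, 8.15 and 8.14 in the combination, against 8.28, 8.20, 8.40 and 8.32 in untreated cells, again without overlap, with a difference of -0.23 ± 0.09 (adjusted p = 0.0484). Both calls sit just inside the threshold, in comparisons that called 14.2% (budesonide at 6 h) and 21% (the combination at 18 h) of all genes. Each missed it under 6 of 9 omissions of arrays, with values from -0.25 to -0.18 at 6 h and from -0.24 to -0.20 at 18 h: at 6 h without budesonide replicates 1, 2 or 3, untreated replicates 1 or 3 or replicate 1 of every group, and at 18 h without combination replicates 1 or 2, untreated replicates 1, 3 or 4 or replicate 1 of every group.

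The other CEBPG comparisons with untreated cells missed the threshold. Budesonide gave -0.19 at 1 h, -0.27 at 2 h and -0.15 at 18 h (adjusted p of 0.906, 0.0682 and 0.283), lower in 4 of 4 replicates at each time, and with the replicate as a block the 2 h difference had an adjusted p of 0.025. Formoterol at 18 h gave -0.27, between -0.29 and -0.27 in the 4 replicates (adjusted p = 0.128), and 0.03 or closer to 0 at 2 and 6 h. CEBPG was lower in budesonide than in formoterol at 2 h (-0.29, adjusted p = 0.0282) and at 6 h (-0.28, adjusted p = 0.0181), in the comparison added after the values were seen. The 2 h call missed the threshold without budesonide replicates 1 or 3, formoterol replicates 2 or 4 or replicate 1 of every group (-0.28 to -0.24), and the 6 h call without budesonide replicates 2 or 3 or formoterol replicate 3 (-0.26 to -0.25). Both also missed it on the other CEBPG probe set (-0.35 at 2 h and -0.32 at 6 h) and with quantile normalization repeated (-0.28 and -0.25), and the 2 h call with only the compared arrays (-0.29). Combination minus budesonide was 0.21 ± 0.09 at 6 h (adjusted p = 0.172), where the groups did not overlap, and its adjusted p was 0.0133 with the replicate within each time as a block.

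CEBPA, the differentiation factor of the family, had group means from 2.91 to 3.52, around 3.02, the lower quartile of the whole table. No comparison with untreated cells passed the test. The highest group was formoterol at 2 h, with 3.40, 3.35, 4.07 and 3.28, against 3.07, 3.33, 3.31 and 2.94 in untreated cells. Replicate 3 stood above the other formoterol arrays, and the groups overlapped. The difference was 0.36 ± 0.13 (SE, n = 4 per group, adjusted p = 0.125, or 0.0466 with the replicate within each time as a block). Combination minus formoterol at 2 h was -0.37 ± 0.13 (adjusted p = 0.127, or 0.0498 with that block). Budesonide minus formoterol at 2 h was -0.52 ± 0.13 (adjusted p = 0.00513), with budesonide arrays from 2.93 to 3.12. Without formoterol replicate 3 it was -0.34 and missed the threshold (adjusted p = 0.147), as it did with only the compared arrays (-0.52, adjusted p = 0.121).

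Every probe set of CEBPD gave higher values in all 3 treatments at all times. The probe set used, 11752869_s_at, averaged 9.61 over the 64 arrays, and the others averaged 9.44 (11743135_s_at), 8.71 (11743136_x_at), 6.89 (11764029_at) and 6.82 (11764030_x_at). On the 2 dimmest probe sets the formoterol difference at 18 h was 0.97 and 0.84 and missed the threshold in the fit of 1 probe set per gene. Combination minus budesonide at 6 h missed it on these as well, with 0.66 and 0.60. By the array maker's naming, an _s or _x in the name marks probes that also match other transcripts, which applies to the probe sets used for CEBPA, CEBPB and CEBPD. The other CEBPG probe set, 11717694_a_at, gave -0.28 for budesonide at 6 h and missed the threshold, and gave 0.41 for combination minus budesonide at 2 h, past it.

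**Figure D4:**
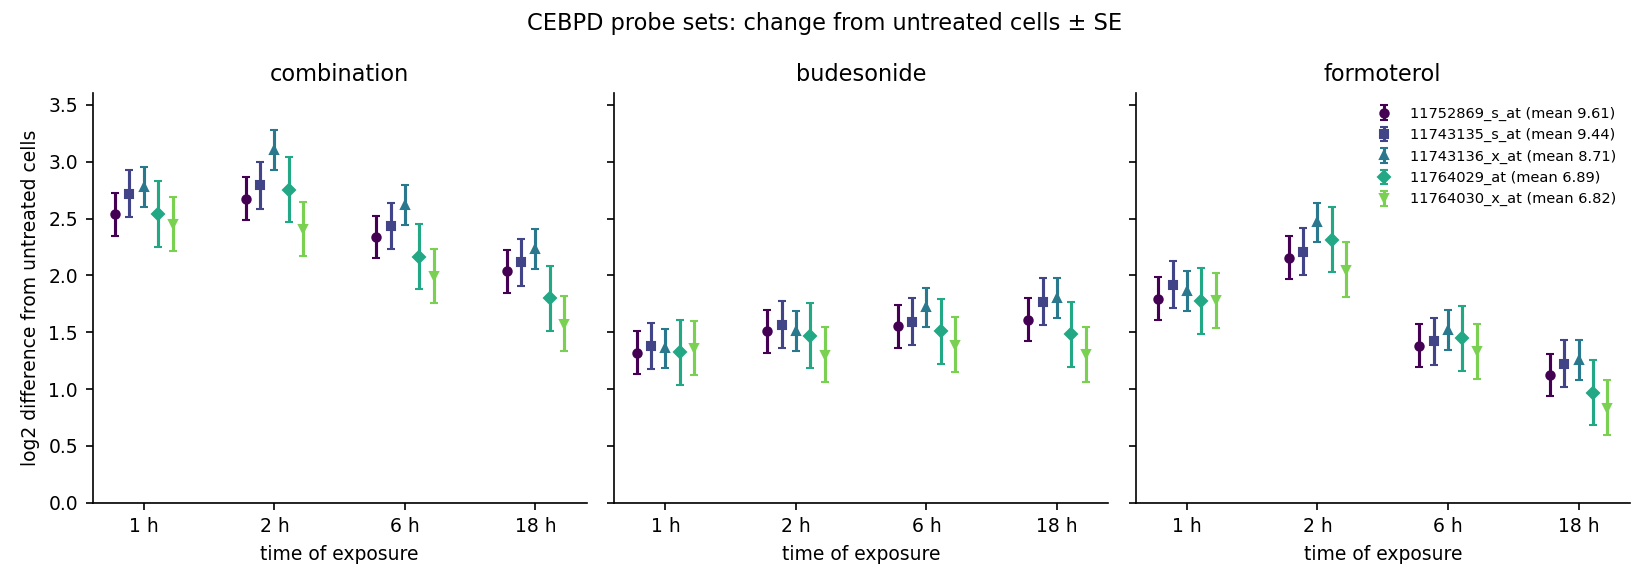
Log2 difference from untreated cells ± SE for the 5 CEBPD probe sets, by time of exposure in h, in the combination, budesonide and formoterol. All 5 lie above 0 throughout, with 11764030_x_at lowest at 18 h (0.84 in formoterol).

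Across the 16 group means the CEBPB and CEBPD profiles had a Pearson correlation of 0.66, CEBPB and CEBPG of -0.73, and CEBPD and CEBPG of -0.39. These describe groups that share arrays of one line and carry no test. Among 1570 genes whose group means spanned at least 1 log2 unit and reached the overall median, the profiles most like CEBPB were those of B3GNT5 (r = 0.973), FOXC2 (0.972), ZFP36 (0.970) and PER1 (0.968). The profiles most like CEBPD were GAS1 (0.933), NFIL3 (0.913), CITED4 (0.898) and PRDM1 (0.895). For CEBPA, with its narrow range, they were USP36 (0.791), CREM (0.710), ZNF503 (0.680) and SLC30A1 (0.676), and for CEBPG C21orf91 (0.882), ANKRD46 (0.772), ZIC2 (0.766) and CXCR4 (0.755). CEBPA and CEBPG themselves spanned 0.62 and 0.39 log2 units, under the limit set for these genes. USP36, CREM and SLC30A1 were highest in formoterol at 2 h, as was CEBPA, whose replicate 3 stood apart there at 4.07. The highest group mean was the combination at 2 h for CEBPB, CEBPD, B3GNT5, FOXC2, PER1, GAS1, NFIL3 and CITED4, and the combination at 1 h for ZFP36 and PRDM1.

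Genes around the C/EBPs were counted in lists. The lists were chosen with earlier results of these data known. Their counts beside the shares of all genes are therefore a description, and enrichment was not tested. Of 3 related family genes, DDIT3, a stress-induced C/EBP that blocks the others by dimerising with them, fell in all 3 treatments at 1 h. It averaged 5.05 in the combination, 5.41 in budesonide and 5.49 in formoterol at 1 h, against 5.99 in untreated cells. Its differences were -0.93, -0.57 and -0.49, each ± 0.13 (SE, n = 4 per group), with adjusted p of 1.16e-07, 0.00494 and 0.0235. It was also lower at 2 h (-0.65), 6 h (-0.47) and 18 h (-0.38) in budesonide, and at 2 h (-1.0) and 6 h (-0.62) in the combination. None of the 3 genes changed in formoterol at 2, 6 or 18 h or in the combination at 18 h. CEBPZ changed in no comparison with untreated cells. Over all genes budesonide called 0.998%, 3.94%, 14.2% and 18.3% at 1, 2, 6 and 18 h. The combination called 2.76%, 9.49%, 18.6% and 21%, and formoterol 1.34%, 4.6%, 4.81% and 1.11%. Some DDIT3 calls rested on single arrays. Budesonide at 1 h missed the threshold without budesonide replicate 3 (-0.47) or replicate 1 of every group (-0.53), formoterol at 1 h without untreated replicates 1, 2 or 3, formoterol replicates 1, 3 or 4 or replicate 1 of every group (-0.49 to -0.46), and budesonide at 18 h without untreated replicates 2 or 4 or budesonide replicates 3 or 4 (-0.37 to -0.29). CEBPE, a myeloid C/EBP, averaged 3.48 in budesonide at 6 h, against 3.10 in untreated cells (0.38 ± 0.12, adjusted p = 0.0201), near the lower quartile, and missed the threshold without budesonide replicate 2 (0.29), untreated replicate 1 (0.29) or replicate 1 of every group (0.34).

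Of 15 zipper partners, 3 rose and 4 fell in the combination at 2 h, with a median of -0.05, beside 3.84% higher and 5.65% lower over all genes and an overall median of -0.0011, and 2 fell without any 1 of untreated replicates 2 and 3 and combination replicates 1 and 4. JUN, an AP-1 subunit, averaged 7.26 in the combination, against 10.13 in untreated cells at 2 h (-2.87 ± 0.10, adjusted p = 2.39e-33), and FOSL1, its partner, 4.99 against 7.18 (-2.19 ± 0.17). FOSL2, another AP-1 subunit, averaged 10.12 in the combination, against 8.44 in untreated cells (1.68 ± 0.14). NFIL3, a zipper repressor whose profile was among those most like CEBPD, averaged 9.20 in the combination, against 7.64 in untreated cells (1.55 ± 0.10). ATF3, a stress-induced repressor, rose at 1 h in the combination (1.99 ± 0.12) and in formoterol (1.95 ± 0.12).

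Of 8 genes of C/EBP turnover and phosphorylation, 2 rose and 2 fell in the combination at 6 h, with a median of -0.0074 beside -0.0046 over all genes, and 8.61% of all genes were higher and 9.95% lower. Without combination replicate 2, 1 of them fell. TRIB1 and TRIB2 encode pseudokinases that bring C/EBPalpha to a ubiquitin ligase. TRIB1 averaged 9.26 in formoterol, against 7.79 in untreated cells at 1 h (1.47 ± 0.10, adjusted p = 8.29e-18). TRIB2 averaged 7.65 in the combination and 7.22 in budesonide, against 6.21 in untreated cells at 18 h (1.44 ± 0.12 and 1.02 ± 0.12). RPS6KA3, a kinase that phosphorylates C/EBPbeta, averaged 6.86 in budesonide, against 7.52 in untreated cells at 6 h (-0.65 ± 0.15, adjusted p = 0.000652).

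Of 25 acute phase, innate and airway target genes, 10 had every group mean under the lower quartile of 3.02. In budesonide at 18 h 2 rose and 2 fell, with a median of -0.01 beside 0.03 over all genes, where 8.56% of all genes were higher and 9.78% lower. SAA1, an acute phase protein, averaged 5.59 in the combination and 7.09 in budesonide, against 3.09 in untreated cells at 18 h (2.51 ± 0.20 and 4.0 ± 0.20). IL6, the cytokine gene for which C/EBPbeta was first named, averaged 7.24 in the combination, 4.31 in budesonide and 9.93 in formoterol, against 5.89 in untreated cells at 1 h. Its differences were 1.35, -1.58 and 4.04, each ± 0.19 (SE, n = 4 per group). CEBPB mRNA rose in all 3 treatments at that time, and a link between these genes was not tested. CCL2, a monocyte chemokine, averaged 6.84 in the combination and 5.67 in budesonide, against 8.96 in untreated cells at 6 h (-2.12 and -3.29, each ± 0.16).

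Of 12 genes of the fat cell differentiation cascade, in which C/EBPbeta and C/EBPdelta come early, 6 rose and 1 fell in the combination at 6 h, and 6 rose and 0 fell in budesonide (1 fell at an unadjusted p under 0.05 in limma). Over all genes 8.61% were higher in the combination and 6.12% in budesonide at that time. In the combination 9.95% of all genes were lower, and budesonide called 14.2% in either direction. The list's median was 0.58 in the combination and 0.44 in budesonide, beside -0.0046 and 0.03 over all genes. In both treatments 6 h was the time of the list's highest median. The list was chosen with earlier results known, so enrichment was not tested by these counts. KLF4, an early zinc finger factor of the cascade, averaged 10.09 in the combination, 8.72 in budesonide and 6.85 in formoterol, against 4.81 in untreated cells at 1 h (5.27, 3.91 and 2.04, each ± 0.24). KLF15, a later one, averaged 7.55 in the combination and 7.15 in budesonide, against 5.14 in untreated cells at 6 h (2.41 and 2.01, each ± 0.14). PLIN2, a lipid droplet coat protein, rose at 6 h by 0.95 ± 0.07 in the combination and 1.22 ± 0.07 in budesonide, and LPL, a lipase, by 2.53 ± 0.18 in formoterol. The 1 gene that fell in the combination at 6 h was KLF5, a zinc finger factor of early fat cell differentiation. In formoterol at 6 h 1 gene of the list rose and 1 fell, with a median of 0.01 beside -0.0058 over all genes. Formoterol called 4.81% of all genes at that time in either direction.

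Of 13 genes of the amino acid response, the setting in which CEBPG pairs with ATF4, 7 fell and 0 rose at 18 h in the combination, and 7 fell and 0 rose in budesonide (0 rose in either at an unadjusted p under 0.05 in limma), beside 10.7% and 9.78% lower over all genes. In budesonide 8.56% of all genes were higher at 18 h, and the combination called 21% in either direction. The medians were -0.48 and -0.23, beside 0.03 and 0.03 over all genes. In both treatments 18 h was the time of the list's lowest median. This list too was chosen with earlier results known, and its enrichment was not tested. PSAT1, an enzyme of serine synthesis, averaged 7.36 in the combination, 7.68 in budesonide and 8.10 in formoterol, against 8.94 in untreated cells at 18 h (-1.58, -1.25 and -0.84, each ± 0.12). In formoterol at 2 h 5 rose and 0 fell (0 at an unadjusted p under 0.05 in limma), beside 2.31% higher over all genes, with a median of 0.07 beside 0.00099, and without formoterol replicate 3 there were 3 that rose. Formoterol at 2 h called 4.6% of all genes in either direction. SLC7A5, an amino acid transporter, averaged 10.13 in formoterol and 7.80 in budesonide, against 9.05 in untreated cells at 6 h (1.08 and -1.24, each ± 0.22).

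**Figure D5:**
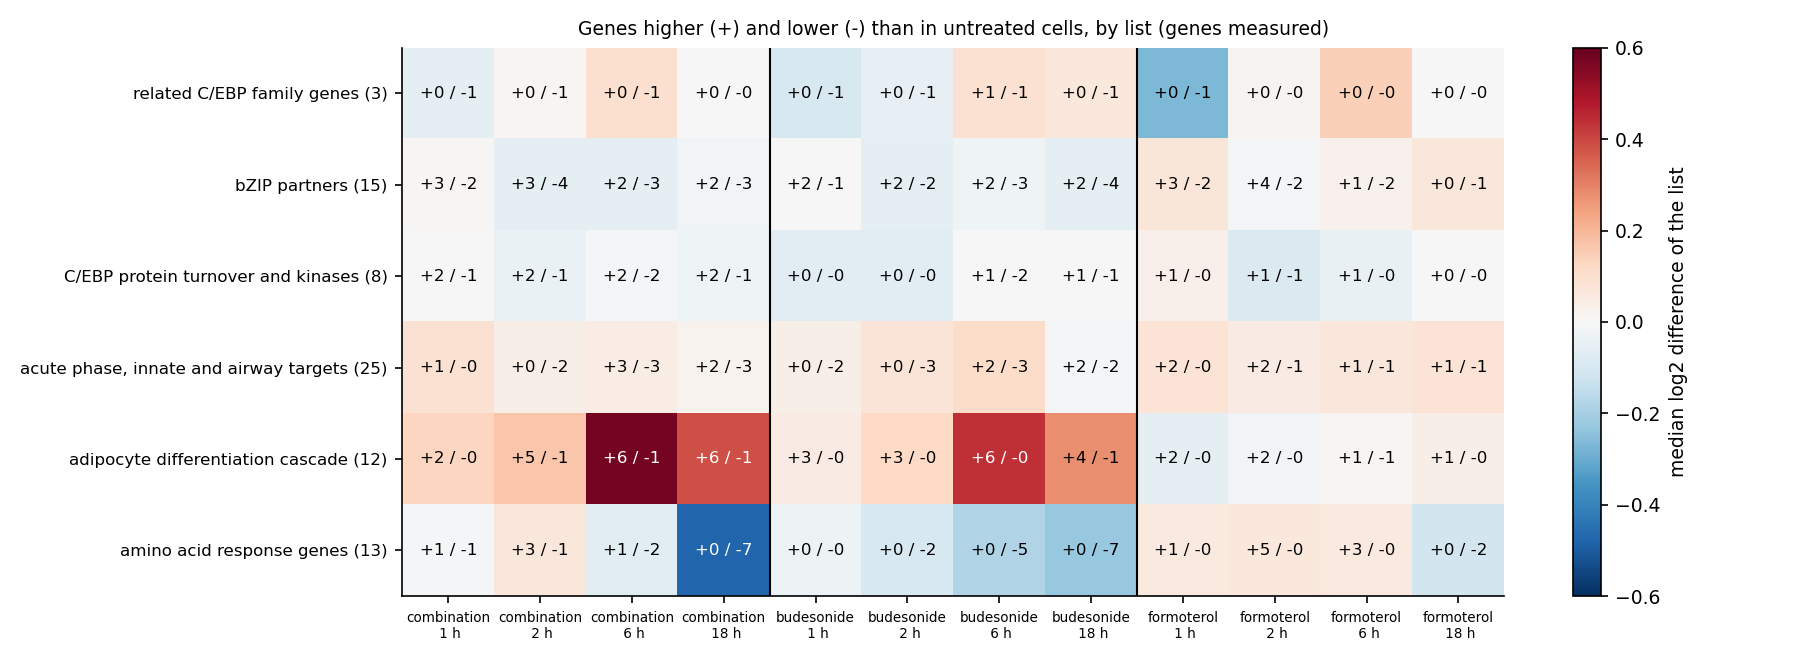
Number of genes higher (+) and lower (-) than in untreated cells at the same time (adjusted p under 0.05) in each of 6 lists, with the number of genes measured in brackets, for the combination, budesonide and formoterol at 1, 2, 6 and 18 h. Colour is the median log2 difference of the list. The fat cell cascade in the combination at 6 h has the highest median (0.58) and the amino acid response genes in the combination at 18 h the lowest (-0.48).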

How the data were processed

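Log2 expression values of 49395 probe sets on 64 arrays were deposited by the authors, made with RMA per the submitters' processing notes; its version, and whether all arrays were normalized together, are not given in the sources used here. RMA subtracts background, equalises the distribution of arrays and summarises probes, so a global shift would not be seen and low values are compressed. Gene symbols came from the platform annotation: 44994 probe sets had 1 symbol, 1832 several and 2569 none; each of 18132 genes was represented by its probe set of highest mean. The list genes CBS, EGR2, SAA4 and TP63 were not analysed here.

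A mean for each of the 16 groups was fitted with limma 3.58.1 in R 4.3.3 (empirical Bayes with intensity trend, 48 residual degrees of freedom, two-sided, Benjamini-Hochberg over all genes in each comparison, threshold 0.05). Differences between times used its moderated F. The fit was tested on simulated data. With 4 arrays a group, the array number sets the precision.

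The members and lists were chosen with earlier results of these data known. Named genes were the members, the highest and lowest called changes of each list and the 4 most similar profiles. The labels describe the 4 determinations as independent. Replicate numbers come from the titles. They were taken to pair samples where all 4 same-numbered pairs of deviations from the group means correlated above 0.1, which held in 14 of 27 comparisons, all at 2 h among them, and the blocked p is given there where it changes a call. Alternatives covered the replicate block across and within times, repeated quantile normalization, dim genes, averaged or other probe sets, no intensity trend, only the compared arrays and left-out arrays.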

Additional observations from a re-analysis of the deposited data

Results flagged for a closer look

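Some groups of 4 arrays held 1 array apart from the other 3, by Dixon's test of the gap over the range. CEBPA in formoterol at 2 h had replicate 3 at 4.07, and CEBPB in the combination at 18 h had replicate 3 at 9.40. Among the list genes, DDIT3 stood apart in replicate 3 of budesonide at 2 h (5.45) and of the combination at 6 h (5.23), NFIL3 in replicate 3 of the combination (9.46) and of untreated cells (7.94) at 2 h, KLF4 in replicate 4 of formoterol at 1 h (6.38), and RPS6KA3 in replicate 2 of budesonide (6.40) and replicate 1 of untreated cells (7.36) at 6 h. These were 9 of 157 groups looked at, and chance marks about 1 in 20. In the 2 h groups replicate 3 also had the highest actin 3' over 5' signal, whose part in these values was not tested.

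The size of an effect differed between the 4 times by the moderated F test of limma for CEBPB in the combination (F = 35.1, adjusted p = 2.35e-11), in budesonide (F = 13.7, adjusted p = 2.04e-05), in formoterol (F = 6.98, adjusted p = 0.0149) and for combination minus budesonide (F = 10.7, adjusted p = 0.00056), and for CEBPD in formoterol (F = 6.21, adjusted p = 0.028). The CEBPB difference between the combination and budesonide was above 0 in 4 of 4 replicates at 1 and 2 h and below 0 in 4 of 4 at 6 and 18 h.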

How the results depend on the processing

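Over the members' comparisons and their alternatives, 2890 results stayed on the same side of the threshold, 59 newly passed it, 67 no longer did and none changed sign among those called. A result that missed the threshold both times counts as the same side even where its sign turned. CEBPG combination minus untreated at 2 h, for example, ran from -0.24 to 0.24. The CEBPB differences of the combination and of budesonide from untreated cells, and all CEBPD differences from untreated cells, kept their call under every alternative, apart from the formoterol difference for CEBPD at 18 h on 2 other probe sets (0.97 and 0.84). For the changes below the cause was not tested.

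With the replicate block (same value, smaller spread), the following newly passed: CEBPB combination minus budesonide at 1 h (0.55) and interaction at 6 h (-0.65), CEBPD combination minus formoterol at 2 h (0.52), combination minus budesonide at 18 h (0.43) and interactions at 2, 6 and 18 h (-0.99, -0.60 and -0.70), and CEBPG in budesonide at 2 h (-0.27) and formoterol at 18 h (-0.27). The CEBPD time tests gave F = 6.34 for the combination and F = 11.2 for combination minus budesonide, or 6.60 and 11.7 with the block within each time. Only the block within time added CEBPA at 2 h, formoterol minus untreated (0.36) and combination minus formoterol (-0.37), and CEBPG combination minus budesonide at 6 h (0.21) and the formoterol time test (F = 5.38). The block changed no other call of the members except CEBPD budesonide minus formoterol at 1 h (-0.47) and 18 h (0.49). Same-numbered pairs did not all correlate above 0.1 for combination minus budesonide at 1 h, formoterol minus untreated at 18 h and budesonide minus formoterol at 18 h. The blocked results listed for these comparisons rest on a pairing that did not hold throughout. Interactions and time tests were not part of that check.

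With only the compared arrays, CEBPB combination minus budesonide at 1 h (0.55) and CEBPD combination minus formoterol at 2 h (0.52) and combination minus budesonide at 18 h (0.43) passed, and CEBPG in budesonide at 6 h (-0.24) did not. Leaving out dim genes added the CEBPD interaction at 2 h (-0.99) and CEBPG in budesonide at 2 h (-0.27). CEBPG in budesonide at 6 h and the combination at 18 h missed the threshold with no intensity trend (-0.24 and -0.23) and with quantile normalization repeated (-0.22 and -0.22). Averaged probe sets added CEBPG in budesonide at 2 h (-0.22) and 18 h (-0.21), formoterol at 18 h (-0.24), combination minus budesonide at 2 h (0.26) and 6 h (0.25), and its time tests for the combination (F = 4.58) and combination minus budesonide (F = 5.70).

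Other probe sets of CEBPD lost combination minus budesonide at 6 h (0.66 and 0.60), combination minus formoterol at 1 h (0.77 and 0.67) and 6 h (0.72) and the formoterol time test (F = 4.11, 5.05 and 5.17), and 11743136_x_at gained combination minus formoterol at 2 h (0.63) and the time tests for the combination (F = 4.50) and combination minus budesonide (F = 9.57). The other CEBPG probe set gained combination minus budesonide at 2 h (0.41) and lost budesonide at 6 h (-0.28).

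Leaving out arrays gave 0.46 to 0.68 for CEBPB combination minus budesonide at 1 h, 0.59 to 0.82 for CEBPB in formoterol at 1 h, F = 5.99 to 8.20 and F = 3.62 to 7.89 for the formoterol time tests of CEBPB and CEBPD, 0.63 to 0.85 for CEBPD combination minus formoterol at 1 h, -1.13 to -0.82 for its interaction at 2 h, -0.34 to -0.20 and -0.28 to -0.18 for CEBPG in budesonide at 2 and 6 h, and -0.26 to -0.20 for CEBPG in the combination at 18 h. Counts over all genes moved by over 1.5 times in 70 of 559 alternatives. Background correction and array batch could not be varied from the deposited table, and CEBPA has no value with dim genes left out. Low signal limits CEBPA.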

Other observations

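Other genes of the lists changed at 6 or 18 h. TRIB3, a pseudokinase induced by amino acid shortage, averaged 7.08 in the combination, against 7.68 in untreated cells at 18 h (-0.61 ± 0.08, SE, n = 4 per group, limma adjusted p = 9.15e-09). ASNS, asparagine synthetase, averaged 7.43 in formoterol, against 8.04 in untreated cells at 18 h (-0.61 ± 0.08, adjusted p = 6.14e-07). SLC3A2, the partner chain of SLC7A5 in amino acid transport, averaged 10.21 in formoterol, against 9.14 in untreated cells at 6 h (1.07 ± 0.10), and 8.27 in budesonide, against 8.99 in untreated cells at 18 h (-0.73 ± 0.10). KLF5, a zinc finger factor of early fat cell differentiation, averaged 5.90 in the combination, against 6.75 in untreated cells at 6 h (-0.85 ± 0.18, adjusted p = 0.0002).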
